A study of Caenorhabditis elegans with 2 samples.

Results

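Regions at genes for small nucleolar RNAs (snoRNAs) were taken from a chromatin immunoprecipitation map of the zinc finger protein Y55F3AM.14 in whole Caenorhabditis elegans larvae. A region was included when its summit, the position of the highest signal, lay within 500 bp of the start of a snoRNA gene and not within 500 bp of a tRNA gene start. Of 29629 regions in the list made from both replicates together, 251 met this rule, and 75 of them were also in the authors' optimal list, the part of the map that passed their test of reproducibility. The whole optimal list held 1604 regions, which were the highest-scoring 1604 of the pooled list. The 75 regions are called optimal snoRNA regions here, and the remaining 176 are called weaker snoRNA regions. Since the pooled list also includes background, a weaker region need not be a binding site.

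The study mapped where the tagged protein is found on chromatin in L2 larvae, with an anti-GFP antibody and sonicated chromatin. All animals were of strain OP608, which is mutant for unc-119 (allele tm4063) and carries the integrated transgene wgIs608. That transgene holds Y55F3AM.14 with a C-terminal TY, EGFP and 3xFLAG tag together with a functional unc-119 gene, so the tagged copy is carried on a transgene. The larvae were a pool of both sexes, had been starved at L1 after bleaching to bring them into step, and were 42 hours old. There was 1 group of 2 samples, labelled as biological replicates, and each list was made against 1 control. The relaxed lists held 29577 regions for replicate 1 and 28681 for replicate 2. Whole larvae mix all tissues, so the cells behind a region are unknown. The endogenous gene, named znf-782 in the annotation, was not changed by anything the labels state. No map of another protein or of untagged animals was used here, and whether these regions are particular to the tagged protein was not tested.

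snoRNAs guide the chemical modification of ribosomal and spliceosomal RNA. Box C/D snoRNAs direct ribose methylation, and box H/ACA snoRNAs direct the conversion of uridine to pseudouridine. In vertebrates most snoRNAs are cut out of the introns of host genes, many of them genes for ribosomal proteins, while in C. elegans many snoRNA genes, those in introns included, have a promoter of their own. Some of these promoters resemble those of tRNA genes, which RNA polymerase III reads through an A box and a B box. In a tRNA gene both boxes lie inside the transcribed part.

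Shown first are 6 of the 7 strongest optimal regions, since their scores lead the set, each as 50 bp on both sides of the summit on the strand of the snoRNA gene. Capitals mark the B box (GTTCNANNC), the A box (TGGCNNAGT) and the motif GGAACCNG where they read on the strand shown. F07A11.15 also has a B box on the other strand, left in lower case (gcctcgaac). The sequences are from the RefSeq genome of build WBcel235, whose coordinates are those of ce11, the build of the lists. The windows lie at V:12303576-12303676 (plus strand), V:6227702-6227802 (minus), V:8500505-8500605 (plus), IV:4390607-4390707 (minus), II:11620044-11620144 (plus) and V:15873917-15874017 (minus), in this order.
C51F7.4: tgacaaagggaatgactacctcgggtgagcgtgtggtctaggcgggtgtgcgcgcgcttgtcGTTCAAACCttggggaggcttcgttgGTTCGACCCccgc
W06H8.17: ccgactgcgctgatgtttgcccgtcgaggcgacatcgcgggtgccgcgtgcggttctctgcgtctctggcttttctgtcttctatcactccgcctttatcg
ZK994.7: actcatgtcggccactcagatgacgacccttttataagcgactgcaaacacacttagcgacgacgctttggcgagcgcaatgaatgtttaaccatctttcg
Y24D9A.9: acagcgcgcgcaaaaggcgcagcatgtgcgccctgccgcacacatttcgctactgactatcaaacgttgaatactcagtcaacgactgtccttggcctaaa
F07A11.15: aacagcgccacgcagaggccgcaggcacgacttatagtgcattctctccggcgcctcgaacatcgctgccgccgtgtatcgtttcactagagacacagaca
T06C12.16: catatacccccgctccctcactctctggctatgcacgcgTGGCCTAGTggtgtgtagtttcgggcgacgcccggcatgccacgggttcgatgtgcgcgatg

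The next 4 are further optimal regions with a B box. They are shown because this motif, among the 5 fixed motifs, most set optimal snoRNA regions apart from weaker ones. They are not the next in score. T02E1.9 (297.7), T03F7.8 (256.3) and B0334.12 (250.5) also have a B box within 75 bp of the summit. These scored above Y38F2AR.14 (220.8) and Y75B12B.12 (205.1) and are not shown. The windows are of the same width and capitals mark the same motifs. They lie at II:11960792-11960892 (plus strand), V:19643181-19643281 (minus), IV:2408618-2408718 (minus) and V:15191038-15191138 (minus).
W03C9.9: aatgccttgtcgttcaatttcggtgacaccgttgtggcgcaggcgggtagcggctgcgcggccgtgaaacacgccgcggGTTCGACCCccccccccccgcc
Y43F8C.22: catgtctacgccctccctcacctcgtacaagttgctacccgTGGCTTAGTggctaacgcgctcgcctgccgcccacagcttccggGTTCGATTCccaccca
Y38F2AR.14: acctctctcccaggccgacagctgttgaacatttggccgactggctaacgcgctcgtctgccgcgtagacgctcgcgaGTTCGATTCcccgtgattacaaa
Y75B12B.12: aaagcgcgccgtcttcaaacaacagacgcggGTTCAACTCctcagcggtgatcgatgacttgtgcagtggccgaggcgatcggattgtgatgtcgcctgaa

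Regions at snoRNA genes were in the optimal list more often than regions of the map as a whole. Of the 251 regions, 75 were optimal (29.9%, 95% interval 24.3 to 36.0), against 5.41% of all pooled regions. Regions at tRNA gene starts had a share of 25.7% (120 of 467) and regions at protein-coding starts one of 7.76% (604 of 7780). The share at snoRNA genes was about the same with and without a protein-coding promoter nearby. It was 29.1% (51 of 175) for regions over 500 bp from every protein-coding start and 31.6% (24 of 76) for the others, while 4.58% of all pooled regions over 500 bp from such a start were optimal. Intervals are exact Clopper-Pearson intervals, which cover counting error only. Regions are not replicates, neighbouring genes can share a region, and the sequencing depth behind the lists is unknown, so shares here and below are a description of this map with no test of the difference.

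Counted by gene, 208 of the 346 annotated snoRNA genes (60.1%) had a region of the pooled list. An optimal region lay within 500 bp of the start of 75 genes (21.7%), against 3.4% of protein-coding genes. A further 133 genes had weaker regions only, and 138 had none. The 75 optimal regions had 73 nearest genes between them, and 2 of the regions had more than 1 snoRNA gene in reach. Every chromosome contributed, with 16 optimal of 53 regions on I, 18 of 55 on II, 9 of 38 on III, 15 of 46 on IV, 14 of 38 on V and 3 of 21 on X. X had the smallest share, from few regions.

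The optimal snoRNA regions stood above the middle of the optimal list. The score, the caller's signal value, had a median of 189.1 over the 75 regions (112.1 to 414.4) and of 150.2 over all optimal regions, and 56 of the 75 (74.7%) were above the median of the list. At tRNA genes 56 of 120 optimal regions (46.7%) were, with a median of 148.0. The strongest snoRNA region ranked 57 in the pooled list. Weaker snoRNA regions had a median of 56.7, against 48.7 for all pooled regions outside the optimal list. They scored lower than optimal ones by the way the optimal list was made, which is no finding.

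The strongest region had its summit 27 bp past the start of C51F7.4, a snoRNA gene overlapping an exon of frm-7, which encodes a FERM domain protein. The same summit lay 82 bp upstream of a second snoRNA gene, C51F7.3, in an intron of frm-7, so that the region cannot be given to either gene. It scored 414.4 over both replicates, 222.7 in replicate 1 alone and 182.7 in replicate 2 alone. Both B boxes printed above for this region lie inside C51F7.4 and upstream of C51F7.3.

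F59C6.15 had the next score, 402.9, with 235.0 in replicate 1 and 165.0 in replicate 2. Its summit lay 43 bp upstream of this intergenic gene, in sequence that was not single-copy. W06H8.17, inside the non-coding RNA gene W06H8.12, followed with 352.7, and with 215.8 in replicate 1 and 141.0 in replicate 2. Here the summit was 202 bp upstream, farther than at most optimal regions, and neither box is in the printed window. ZK994.7 lies in an intron of pxn-1, which encodes a peroxidasin homolog, an extracellular matrix enzyme. Its region scored 345.4, with 151.3 in replicate 1 and 191.9 in replicate 2, and had its summit 24 bp upstream of the snoRNA gene and 5666 bp from the nearest protein-coding start. Of the 12 strongest regions it lay farthest from any protein-coding start, and close to its intronic snoRNA gene.

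At T06C12.16, an intergenic gene, the summit was 41 bp upstream and the score 299.6, with 149.0 in replicate 1 and 151.1 in replicate 2. T02E1.9 and W03C9.9, both intergenic, had summits 16 and 56 bp upstream. The first scored 297.7, with 146.7 in replicate 1 and 156.2 in replicate 2, and the second 273.2, with 114.9 and 156.8. Y43F8C.22 lies in an intron of Y43F8C.7, which encodes a subunit of the endoplasmic reticulum membrane protein complex. Its summit was 44 bp upstream, and it scored 256.4, with 156.8 in replicate 1 and 99.1 in replicate 2. T03F7.8, on the opposite strand inside the cuticlin-like gene cutl-18, scored 256.3, with 135.8 and 124.5 in the replicates and its summit 74 bp upstream. Of the 12 strongest regions, 10 had the summit upstream of the snoRNA gene, 7 of them within 100 bp, and 9 were over 500 bp from every protein-coding start. Neither replicate led throughout, since 7 of the 12 scored higher in replicate 1.

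The remaining 3 of the 12 lay close to starts of protein-coding genes. The summit at F07A11.15, a gene on the opposite strand inside din-1, which encodes a protein that interacts with the nuclear receptor DAF-12, was 69 bp past the snoRNA start and 16 bp from a protein-coding start. It scored 318.0, with 169.4 in replicate 1 and 164.1 in replicate 2. The summit at Y24D9A.9 in rpl-7A lay 349 bp upstream of the snoRNA gene and 67 bp from a protein-coding start. Its sequence there was not single-copy. The summit at F54E7.10 in rps-12 lay 240 bp upstream and 133 bp from such a start. Their scores were 342.5 (199.2 in replicate 1 and 144.4 in replicate 2) and 250.9 (108.6 and 143.2). For these 3 regions a snoRNA gene and the promoter of a protein-coding gene cannot be told apart as the place of binding.

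F07A11.15 was also 1 of the 2 snoRNA genes with a pair of optimal regions. Its second region, at 278 bp past the start, scored 152.5. The other gene was C26C6.13, with regions 336 and 137 bp upstream that scored 203.0 and 143.6.

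Genes for ribosomal proteins are the classic hosts of snoRNAs. Of 23 snoRNA genes in 15 ribosomal protein genes, 2 had an optimal region (8.70%, 1.07 to 28.0), an interval that takes in the share over all snoRNA genes (21.7%) and over same-strand intronic ones (25 of 143, 17.5%). The 2 are the ones at Y24D9A.9 and F54E7.10, near the host promoters. A further 15 had weaker regions only, and 6 had no region. The 17 weaker regions there scored from 36.6 to 103.5, with a median of 55.3, close to the median of all weaker snoRNA regions. The strongest of them was at D1007.20 in rpl-24, with its summit 402 bp upstream of the snoRNA gene and 268 bp from a protein-coding start.

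Optimal summits gathered just upstream of the snoRNA genes. The rule admitted both sides of the start alike, yet 59 of 75 optimal summits (78.7%, 67.7 to 87.3) lay upstream on the strand of the nearest snoRNA gene. The span from 1 to 100 bp upstream alone held 46 (61.3%, 49.4 to 72.4), and 30 of these were within 50 bp. The median position was 39 bp upstream of the start (quartiles −69 and −14). A further 7 summits (9.33%) were inside the snoRNA gene, and 9 (12%) lay past its end.

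Weaker summits were spread over the whole window, though not evenly. The bins of 50 bp from −100 to 99 held 13 to 17 of them each. Bins farther upstream held 4 to 8, and bins farther downstream 2 to 16. In all, 29 of 176 (16.5%, 11.3 to 22.8) were 1 to 100 bp upstream, and 81 (46%) lay upstream at all. A further 36 (20.5%) were inside the gene and 59 (33.5%) were past its end. Their median position was 19 bp past the start (quartiles −148 and 211). Weaker regions that were found in both replicate lists were close to the rest in this respect, with 15 of 79 (19.0%) at 1 to 100 bp upstream against 14 of 97 (14.4%). Read the other way, 61.3% of the 75 regions 1 to 100 bp upstream were optimal and 16.5% of the 176 elsewhere were. The shares coincide because the 2 pairs of counts are the same.

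**Figure D1:**
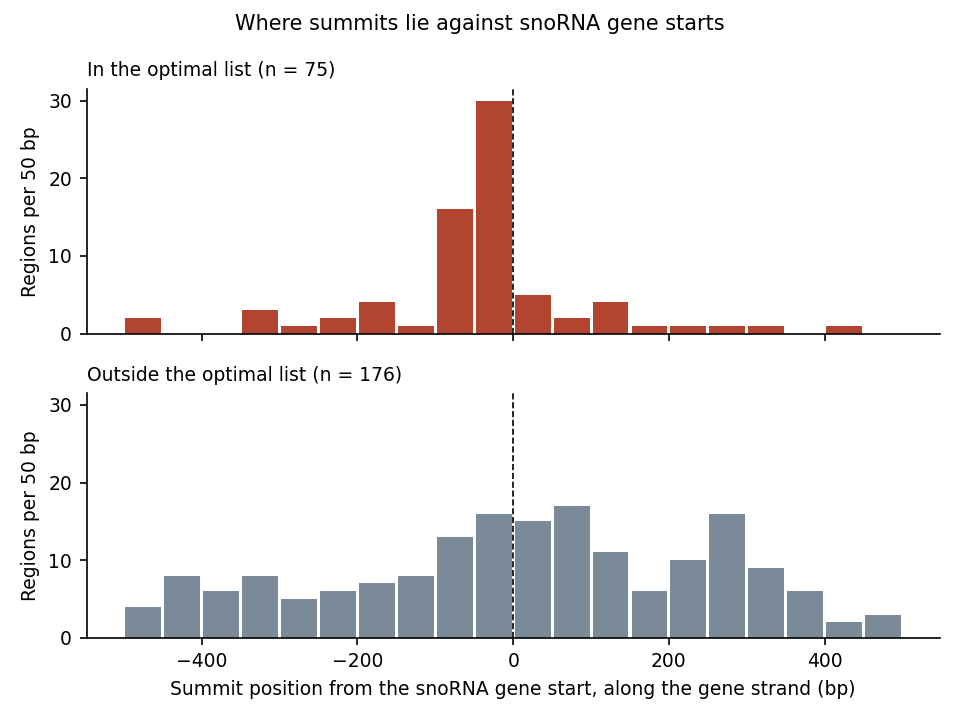
Number of regions per 50 bp of distance between the summit and the start of the nearest snoRNA gene, in bp along the gene strand, with negative values upstream, for 75 optimal (upper) and 176 weaker (lower) regions. The 2 bins from −100 to −1 hold 16 and 30 optimal regions, while no bin of weaker regions holds more than 17.

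The position differed from that at tRNA genes. Optimal summits at tRNA genes had a median position 24 bp past the tRNA start, and 57 of 120 (47.5%) lay inside the tRNA gene. Only 34 (28.3%) were 1 to 100 bp upstream, against 61.3% at snoRNA genes. The 2 classes also differed in how unique their sequence is. The window of 151 bp around the summit was free of repeated 32-base words in 70 of 75 optimal snoRNA regions (93.3%) and in 21 of 120 optimal tRNA regions (17.5%), beside 88.1% of all optimal regions. Repeated sequence can draw reads from several places. How such reads were handled is unknown, and their effect on either class was not tested.

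The preference for the span just upstream was present in each replicate on its own. The 1604 highest-scoring regions of replicate 1 included 70 of its 251 regions at snoRNA genes (27.9%), and 40 of these 70 (57.1%) had summits 1 to 100 bp upstream, against 29 of the other 181 (16%). For replicate 2 the same count gave 74 of 234 (31.6%), with 43 of 74 (58.1%) in that span against 25 of 160 (15.6%). The median position was 39.5 bp upstream in replicate 1 and 36 bp upstream in replicate 2.

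Optimal snoRNA regions were found again in both lists nearly throughout. A summit within 100 bp was present in both replicate lists for 73 of 75 regions (97.3%), against 94.6% of all optimal regions. For weaker snoRNA regions the share was 44.9% (79 of 176), against 32.1% of all pooled regions outside the optimal list. The optimal list was chosen by irreproducible discovery rate, a measure of reproducibility, and holds the highest pooled scores, so its high share is partly given. Being in it does not mean a high rank in each replicate. Of the 73 regions, 62 were among the 1604 highest scores of both replicates, and of 1517 optimal regions of the whole map 1014 were. The scores of the 73 regions had a Spearman's rho of 0.640 between the replicates, described across regions that share both libraries, and rho was 0.589 over 1517 optimal regions of the whole map. Replicate 1 scored higher in 48 of 73, and its median over the optimal snoRNA regions was 104.5, against 89.2 in replicate 2. Over the whole lists the medians were 29.9 and 25.3, so the same direction is seen over all regions.

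**Figure D2:**
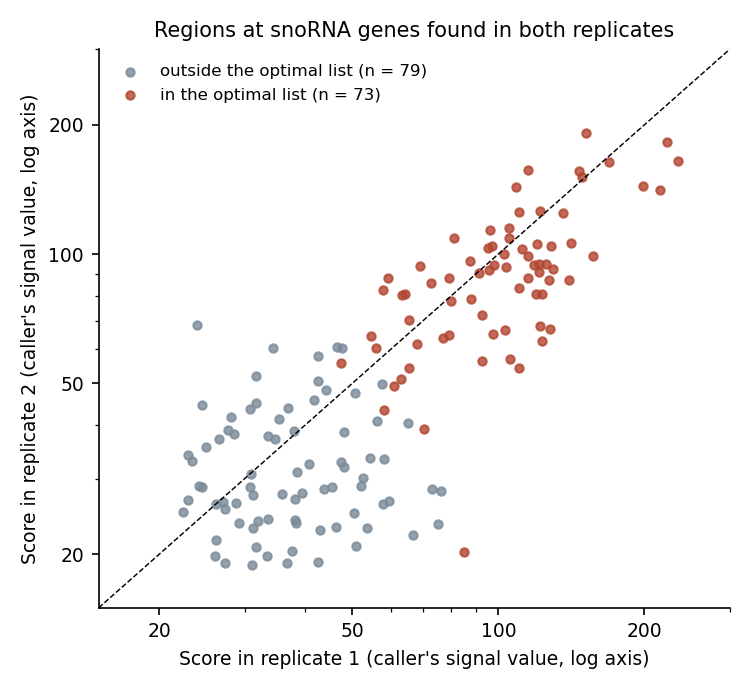
Score in replicate 2 against score in replicate 1, the caller's signal value on log axes, for 73 optimal and 79 weaker snoRNA regions with a summit in both lists, with the line of equal scores dashed. Optimal regions lie above and to the right of most weaker ones, and C17H12.36 is the point far below the line, with 84.8 in replicate 1 and 20.2 in replicate 2.

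A few optimal regions had unlike values in the 2 replicates. The region at C17H12.36, an intergenic gene, was the most unlike, at rank 781 in replicate 1 and 23895 in replicate 2. The next were K02C4.8, with 110.2 in replicate 1 and 54.3 in replicate 2, and C02F5.15 in rfs-1, with 122.9 and 62.8. These next regions were still among the 1604 highest scores of each replicate, with ranks of 1558 and 1077 in replicate 2. At Y67A10A.14 a summit within 100 bp was listed in replicate 2 only (74.8), and at smy-2 in replicate 1 only (82.0). The gene smy-2 lies in an intron of C33A12.3 and counts as a snoRNA gene here only by the type that the annotation gives it. Both regions had a summit in the other list within 200 bp. Among the 73 regions with a summit in both lists, the first 3 named here had the most unlike scores.

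At the edge of the optimal list the values run on without a gap. The strongest weaker region, at W01C9.6, scored 108.4, with its summit 11 bp upstream. It had 58.7 in replicate 1 and no summit within 100 bp in replicate 2. The regions at Y55F3BR.9 (107.6), K07C10.2 (103.7) and D1007.20 (103.5) followed, with summits 258 bp past, 80 bp past and 402 bp upstream of the start. The weakest optimal region, at F48A11.7, scored 112.1. It was also among the regions nearest to the edge of the window, 486 bp upstream. With it just inside 500 bp were F21F12.3 at 500 bp (38.0) and F19H8.7 at 484 bp (83.6). Just outside were F26D10.24 at 501 bp, R07G3.16 at 503 bp (36.2) and C06A1.9 at 505 bp. The last has the score 607.3, is optimal and lies 162 bp from a protein-coding start in cdc-48.1, so the window's edge leaves out a region stronger than any counted here.

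Optimal regions were found at snoRNA genes in every kind of genomic place. Of the 251 regions, 99 had a nearest gene in an intron of a protein-coding gene on the same strand, and 24 of these were optimal (24.2%, 16.2 to 33.9). Between genes the count was 34 of 94 (36.2%, 26.5 to 46.7). On the opposite strand inside a protein-coding gene it was 9 of 24 (37.5%), inside another gene 5 of 9 (55.6%), and at snoRNA genes overlapping an exon of a same-strand gene 3 of 25 (12%). The intervals of the intronic and the intergenic share overlap, and those of the smaller classes are wide. In all, 36 of 75 optimal regions (48.0%) and 112 of 176 weaker ones (63.6%) belonged to snoRNA genes within protein-coding genes.

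At many intronic snoRNA genes the region lay far from the host promoter. Of the 24 optimal regions at same-strand intronic snoRNA genes, each in a different host gene, 15 had summits 1 to 100 bp upstream of the snoRNA gene, and 12 of those 15 were over 500 bp from every protein-coding start, with a median distance of 1259 bp over the 15. Examples, chosen after their values were seen, have varied hosts. M106.6 lies in mix-1, which encodes a subunit of condensin and of the dosage compensation complex. Its region scored 194.7, with 95.3 in replicate 1 and 103.1 in replicate 2, and its summit was 39 bp upstream and 3349 bp from a protein-coding start. C10C6.8 lies in catp-8, which encodes a cation-transporting ATPase, and its region scored 208.5, with 121.2 in replicate 1 and 91.1 in replicate 2, at 44 bp upstream and 3799 bp from such a start. F11A10.9 in rbm-34, which encodes a protein with an RNA recognition motif, had a region of 200.2, with 123.3 and 80.8 in the replicates, 30 bp upstream.

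**Figure D3:**
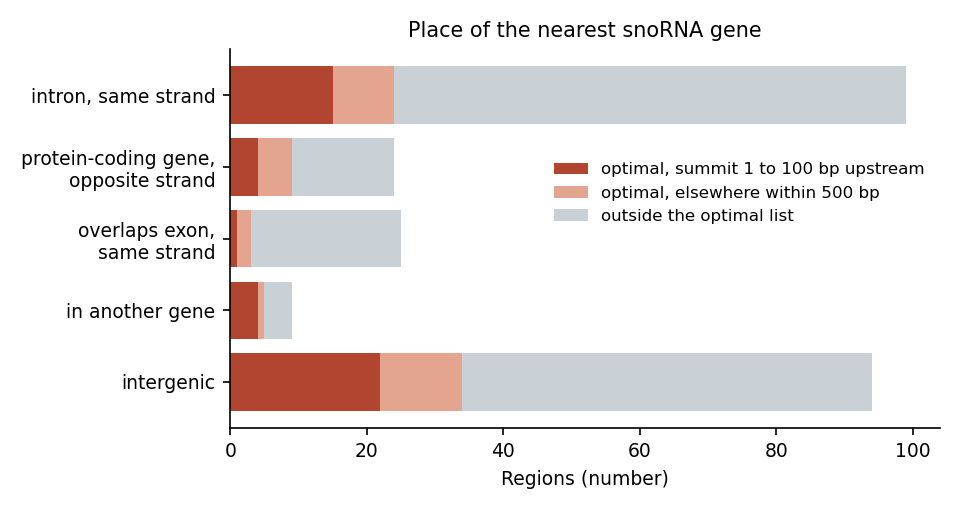
Number of regions by the place of the nearest snoRNA gene, split into optimal regions with the summit 1 to 100 bp upstream of the gene, other optimal regions, and weaker regions. Same-strand introns hold 24 optimal of 99 regions and intergenic genes 34 of 94, and in both the summits just upstream (15 and 22) make up most of the optimal ones.

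Shorter snoRNA genes had optimal regions more often. Of 93 genes under 100 bp long, 37 (39.8%, 29.8 to 50.5) had one, against 33 of 211 genes of 100 to 199 bp (15.6%, 11.0 to 21.3) and 5 of 42 longer genes (11.9%). Summits 1 to 100 bp upstream made up 26 of 35 optimal regions nearest to genes under 100 bp (74.3%). The counts were 18 of 34 (52.9%) at genes of 100 to 199 bp and 2 of 6 (33.3%) at longer ones, with intervals that overlap. The median length was 103 bp for genes with an optimal region and 132 bp for the rest. Box C/D snoRNAs are usually shorter than box H/ACA snoRNAs. A sorting by sequence, which asked for a C box near the start and a D box near the end, or for ACA at the end, placed only 15 genes as C/D and 78 as H/ACA. Of these, 5 and 15 had an optimal region (33.3% and 19.2%), with 55 of the 253 genes left unsorted (21.7%), and the intervals of the 2 classes overlap.

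Of the 5 fixed motifs, the B box had the widest gap between optimal and weaker snoRNA regions. It was searched as GTTCNANNC on both strands within 75 bp of the summit. It was present in 25 of 75 optimal regions (33.3%, 22.9 to 45.2) and in 15 of 176 weaker ones (8.52%, 4.85 to 13.7), beside 6.44% of all pooled and 8.98% of all optimal regions. Optimal regions with the summit 1 to 100 bp upstream held it in 21 of 46 cases (45.7%), and optimal regions elsewhere in 4 of 29 (13.8%). Weaker regions with the summit in the same upstream span had it in 2 of 29 cases (6.90%). In each replicate alone the share was 32.9% and 36.5% of the regions at snoRNA genes among the 1604 highest scores. At optimal tRNA regions the B box was in 80 of 120 (66.7%). These 80 and the 25 at snoRNA genes are among the 144 of all 1604 optimal regions with the box, so most of that 8.98% comes from them.

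The A box, TGGCNNAGT on both strands, was in 11 of 75 optimal snoRNA regions (14.7%) and 6 of 176 weaker ones (3.41%), beside 1.91% of all pooled regions. GACGC was in 33.3% of optimal and 13.1% of weaker snoRNA regions, about as in the map at large, where 31.4% of all optimal and 14.7% of all pooled regions held it. The repeat GAGAGA, found in 34.5% of all optimal regions, was in 18.7% of the optimal snoRNA regions and 13.1% of the weaker ones, and 13.9% of all pooled regions held it. TATAAA was in 13.3% and 11.9%, beside 10.7% of all pooled regions. The letters of the B box and of GAGAGA thus had opposite patterns, the first more frequent at snoRNA genes than in the optimal list as a whole and the second less frequent.

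Single 6-base words were also counted in the same windows. Of 2080 words, a word and its reverse complement counted as 1, GGCGCA differed most between the sets, in 26.7% of optimal and 7.39% of weaker regions. CGCACA (22.7% and 4.55%), GCGCAC (24.0% and 6.82%), AGCGCG (21.3% and 4.55%) and GCGCCA (22.7% and 6.82%) followed. All 5 are rich in G and C, and the sets differ in base composition. The median GC content of the summit windows was 51% in optimal and 42.4% in weaker snoRNA regions, beside 47.7% in all optimal and 41.1% in all pooled regions. What part of the difference in words goes with base composition was not tested.

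Counted by gene, the B box was searched only in the 100 bp before the annotated snoRNA start. Boxes inside or past a gene were not counted for that gene, so the counts do not show where boxes lie over the whole gene. Within the 100 bp before the start it was found on the gene strand in 25 of 75 genes with an optimal region (33.3%), in 9 of 133 genes with weaker regions only (6.77%) and in 4 of 138 genes with no region (2.9%). On the opposite strand it was found in 0 of 75, 3 of 133 and 0 of 138. The same span before protein-coding genes held it on the gene strand in 1.59% of 19971 genes. Taken the other way, 25 of the 38 snoRNA genes with an upstream B box had an optimal region (65.8%, 48.6 to 80.4), against 50 of the 308 without one (16.2%, 12.3 to 20.8). By place, 9 of 16 same-strand intronic genes with the box had an optimal region, against 25 of all 143 such genes (17.5%). Between genes it was 10 of 13, against 33 of 122 (27.0%). On the opposite strand inside a protein-coding gene it was 3 of 6, against 9 of 33 (27.3%), and inside another gene 3 of 3, against 5 of 11 (45.5%). These counts are small.

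Most of the B boxes found in these 100 bp lay close to the snoRNA start. The first base was at a median of 14 bp before it (quartiles −19 and −12, range −70 to −5) over 26 matches in genes with an optimal region. The few matches elsewhere were placed alike, at a median of −12 bp from the start over 9 matches in genes with weaker regions only and of −15.5 bp over 4 matches in genes with none. At M106.6 it started 17 bp before, and at F11A10.9 it started 20 bp before. The A box was upstream in 10 of 75, 7 of 133 and 3 of 138 genes, and in 0.195% of protein-coding genes, at a median of 57 bp before the start in genes with an optimal region. In the 10 snoRNA genes that had both, the A box began 43 to 45 bp before the B box. Of these 10 genes 7 had an optimal region, close to the share over all genes with an upstream B box (25 of 38, 65.8%). In 50 tRNA genes with both boxes the same spacing ran from 44 to 94 bp, with a lower quartile of 44 and a median of 54. The printed sequence of Y43F8C.22 shows such a pair. T06C12.16 has the A box and, after it, only the short form gttcga, which is followed by other letters than the full motif asks for.

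The summit was also measured from the box. In 24 optimal snoRNA regions with an upstream B box the summit was at a median of 28 bp before the first base of the box (quartiles −42 and −6), and 19 of the 24 were within 50 bp of it. In 116 optimal tRNA regions the median was also 28 bp before the box, but with a wider spread (quartiles −71.3 and 13.5, range −273 to 280), and 67 of 116 were within 50 bp. Measured from the gene start the 2 classes differ, at −39 bp and 24 bp, and measured from the box the medians are equal. The snoRNA boxes were searched only before the gene start, while the tRNA boxes lay past it. Whether the summit position goes with the box was not tested. In the printed windows with a B box, whose summit is the middle base, the box lies after the summit in all but Y75B12B.12. A box over 50 bp from its summit falls outside such a window, as at T03F7.8, where the summit is 63 bp before the box.

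A second motif, GGAACCNG, and the letters TGTCNGC that often follow it were picked after the upstream sequences had been seen, so their counts support nothing beyond a description. It was present on the gene strand in the 100 bp before 8 of 75 genes with an optimal region (10.7%), 5 of 133 with weaker regions only (3.76%) and 4 of 138 with none (2.9%), and before 0.120% of protein-coding genes. All 17 matches began 79 to 59 bp before the snoRNA start. In 11 of the 17 genes the letters TGTCNGC followed after 5 bp, and 6 of these 11 had an optimal region. Only 1 of 346 genes, smy-2, held both GGAACCNG and the short B box form GTTCNA. Either was present in 37 of 75 genes with an optimal region (49.3%), 26 of 133 with weaker regions only (19.5%) and 18 of 138 with none (13.0%), while GTTCNA alone is found before 10.3% of protein-coding genes. Of the 8 genes with the motif and an optimal region, 6 are shown to let the shared letters be compared. Each is the 100 bp before the snoRNA start on the gene strand, all on the minus strand of the genome, and capitals mark GGAACCNG and TGTCNGC. They lie at II:14018442-14018541, II:15025894-15025993, IV:8428740-8428839, IV:9511467-9511566, IV:14327122-14327221 and V:8228970-8229069.
F01D5.12: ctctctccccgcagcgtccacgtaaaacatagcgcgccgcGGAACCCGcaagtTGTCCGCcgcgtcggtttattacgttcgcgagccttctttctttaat
Y53F4B.47: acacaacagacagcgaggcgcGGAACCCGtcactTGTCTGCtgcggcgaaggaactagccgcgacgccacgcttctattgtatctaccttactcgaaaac
T26A8.6: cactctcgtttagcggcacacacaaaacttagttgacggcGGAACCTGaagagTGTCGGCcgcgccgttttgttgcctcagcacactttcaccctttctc
smy-2: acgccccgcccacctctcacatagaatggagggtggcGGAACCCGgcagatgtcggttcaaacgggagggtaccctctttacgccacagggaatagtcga
Y67A10A.14: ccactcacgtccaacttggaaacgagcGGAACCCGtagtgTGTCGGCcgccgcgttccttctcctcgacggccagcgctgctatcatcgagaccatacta
C16D9.11: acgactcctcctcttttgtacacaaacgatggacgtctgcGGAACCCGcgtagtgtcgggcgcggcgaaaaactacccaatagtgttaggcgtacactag

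**Figure D4:**
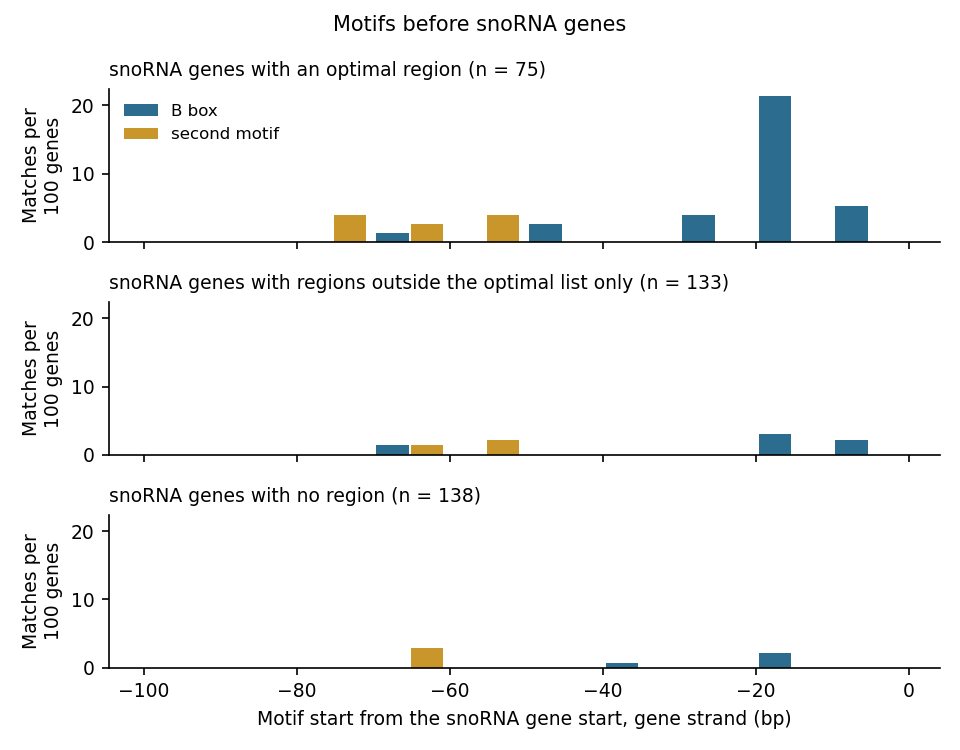
Matches per 100 snoRNA genes by distance of the motif's first base from the gene start, in 10 bp bins with the B box (GTTCNANNC) and the second motif (GGAACCNG) as bars side by side, for 75 genes with an optimal region, 133 with weaker regions only and 138 with none. B boxes in the upper panel pile up close to the start, at a median of −14 bp, and the second motif lies farther upstream.

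Of the 6 genes, F01D5.12, Y53F4B.47 and T26A8.6 had regions just upstream. F01D5.12 is in an intron of F01D5.10, which encodes a carbohydrate sulfotransferase, and its region scored 232.1, with 140 in replicate 1 and 87.1 in replicate 2, at 17 bp upstream. Y53F4B.47 scored 231.5, with 110.2 and 125.1 in the replicates, at 26 bp upstream. T26A8.6 scored 225.7, with 125.2 and 95.0, at 44 bp upstream. At smy-2 and Y67A10A.14 the optimal summit lay past the start instead, at 218 and 123 bp, and these are the 2 regions with a summit within 100 bp in 1 replicate list only. The summit at smy-2 was 38 bp from a protein-coding start, so here too the gene and that promoter cannot be told apart. C16D9.11, in an intron of rol-3, had the lowest score of the 6, 112.9, with 58 in replicate 1 and 43.3 in replicate 2, and its summit was 8 bp upstream. The genes with the second motif and an optimal region that are not shown are F59C6.15 (402.9) and F25H2.15 (138.6). The optimal summit windows at both, and at Y67A10A.14, were not single-copy. Whether the shared letters and spacing go with repeated sequence was not tested.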

How the data were processed

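The authors deposited 4 peak lists in narrowPeak form on build ce11: 1 relaxed list of peaks and background for each of 2 replicates, a pooled relaxed list and an optimal list chosen by irreproducible discovery rate, per the notes deposited with the samples. Each deposited region carries a score, the caller's signal value, and the −log10 of a q value that the authors' caller gave. In the pooled list this −log10 q ran from 1.67 to 2.78 over optimal and from 0.0181 to 1.52 over weaker snoRNA regions. The sources used here give no aligner, caller or threshold, and depth is unknown, so no floor or scaling was set.

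Summits were compared with gene starts of the RefSeq annotation of WBcel235. A region was optimal when its row was identical in the optimal list, and 70 of 75 had 1 fixed width, 424 bp. The rule left out 4 regions near tRNA starts, 0 of them optimal. Host genes had to contain the whole snoRNA gene. Motifs were read from the genome, and a window was single-copy when none of its 32-base words occurred again. Shares have 95% exact intervals. There was 1 group, so no test was made. Search and distance steps were checked on simulated data.

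Named were the 12 strongest optimal regions, the 4 strongest others, those at the edges of the window, optimal ones in ribosomal protein genes, the 2 genes with most optimal regions, the 3 with the most unlike replicate scores and 5 words. The weakest optimal region, those missing from a replicate, the intronic examples and the genes of the second motif were added after their values were seen. The members and lists were chosen with earlier results of these data known. Python 3.11.15, numpy 2.4.6, pandas 2.3.3, scipy 1.17.1 and matplotlib 3.10.9 were used. Windows of 250 and 1000 bp, other definitions of optimal, regions away from protein-coding starts, other motif windows and each replicate alone were tried as alternatives.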

Additional observations from a re-analysis of the deposited data

How the results depend on the processing

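The share of regions at snoRNA genes in the optimal list was 37.7% with a window of 250 bp and 22.5% with 1000 bp in place of 500 bp. It was 37.1% when any overlap with an optimal region counted, since 18 of the 176 weaker regions overlap one, and 22.3% when only optimal regions above the median score of their list counted. Optimal regions with a summit in both replicate lists came to 100% with 200 bp allowed between summits. With each replicate alone the optimal share ranged from 27.9% to 31.6%, the number of snoRNA genes from 71 to 72, the share upstream from 72.9% to 74.3%, the share in protein-coding genes from 48.6% to 51.4% and the share with a B box from 32.9% to 36.5%. Of 49 values under an alternative, 44 moved by less than their counting error or, for numbers of genes, by less than 1.5 times, and 5 moved further. The single-copy windows and the short motif GTTCNA were alternatives chosen after seeing the data. The number of genes ran from 51 to 96. No paired analysis was possible because there is only 1 group of samples. With 2 replicates, 1 control per list and unknown depth, weak regions cannot be told from background, and shares over fewer than 30 regions have wide intervals.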
